A study of Mus musculus with 10 samples.

Results

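Skeletal muscle fibres contract through the sarcomere, in which myosin thick filaments pull on actin thin filaments under the control of the troponin complex, and Z-discs anchor the thin filaments. The proteins come in families, and fast-twitch fibres use their own myosin, troponin and actinin isoforms, while most other cells use non-muscle relatives. Macrophages build no sarcomeres. Skin wounds hold many cell types, the mouse carries a thin muscle layer under the skin (the panniculus carnosus), and macrophages in a wound engulf dying cells, a process called efferocytosis.

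The 10 genes described here were a given list, chosen with earlier results of these data known. They were found by gene symbol among the 55414 gene identifiers of the count tables, and all 10 were present. They encode a thin filament actin (Acta1), myosin chains (Mylpf, Myh4), the fast troponin subunits (Tnnt3, Tnni2, Tnnc2), a Z-disc actinin (Actn3), the intermediate filament desmin (Des), and the energy and oxygen proteins muscle creatine kinase (Ckm) and myoglobin (Mb). Polyadenylated RNA was sequenced in 10 mouse libraries of sorted macrophages. Eff+ denotes cells that had taken up apoptotic cells, and Eff- cells that had not.

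In the wound model, LysMCreER/mTmG mice received tamoxifen for 6 days, wounds were taken on day 3, and 3 Eff+ and 3 Eff- libraries were made. The labels give all 6 the same genotype, with the Cre and the reporter. LysM is lysozyme 2 (Lyz2), whose promoter drives the Cre and which is active in neutrophils and other myeloid cells as well as in macrophages. In the culture model, bone marrow cells of wild-type mice were grown with GM-CSF for 7 days, and the labels list 12 h with apoptotic fibroblasts for all 4 libraries (2 Eff+ and 2 Eff-). The names of the Eff- culture columns carry the letters NOAC, so it is unclear whether those cells had met apoptotic cells. Libraries of a group are numbered as in the labels. Whether libraries of a group came from different animals or cultures is not stated, and the p-values below therefore reflect just the spread among these libraries, part or all of which may be technical.

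Total counts were 39735437 to 57308823 in the wound libraries and 17622740 to 27261880 in the culture libraries. CPM below are read counts scaled to depth with TMM factors, on which 1 count was worth 0.0190 to 0.0519 CPM. All 10 macrophage markers had counts in all 10 libraries, a low bar that all 10 fibroblast markers also met in the wound libraries. Both wound libraries numbered 2 stood apart in 1 gene. The lysozyme gene Lyz2 had 159484 counts in Eff+ library 2, 345046 in Eff- library 2 and at most 413 in the remaining wound libraries. Lyz2 is the gene of the LysMCreER allele, so libraries that the labels give 1 genotype differed in the counts of that gene, and whether their genotypes differed was not tested. Both culture libraries numbered 1 had counts in 35649 (Eff+) and 44836 (Eff-) genes, against 19649 and 18171 in those numbered 2. Of the 34200 genes at 0 in both culture libraries numbered 2, 45.9% had counts in Eff+ library 1 and 70.6% in Eff- library 1, against 4.38 to 8.08% in the wound libraries. Low counts in the culture libraries numbered 1 are to be read beside that spread of counts over genes at 0 elsewhere.

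The 10 genes were scarce in every library. Together they held 1465, 2518 and 2802 counts in wound Eff+ libraries 1 to 3, and wound Eff- libraries held 371, 1076 and 374. The culture libraries held 226 and 179 (Eff+) and 423 and 135 (Eff-). Scaled to depth, the sum was 49.1 ± 14.2 CPM in wound Eff+ and 12.1 ± 7.24 CPM in wound Eff- (SD, n = 3 each). In culture it was 8.05 ± 0.882 CPM in Eff+ and 12.9 ± 8.33 CPM in Eff- (SD, n = 2 each). The 3 wound Eff+ libraries, at 33.1, 53.9 and 60.3 CPM, lay above the 3 Eff- libraries, at 7.37, 20.5 and 8.58 CPM. Among the Eff- libraries, number 2 was the highest.

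Of the 10 genes, 8 had enough counts to be tested in the wound libraries with edgeR's quasi-likelihood test, and 1 of them, Mylpf, was called higher in Eff+ at a Benjamini-Hochberg adjusted p under 0.05. Over all 14908 genes tested, 11.2% were called, and 7.39% were called higher in Eff+. The log2 fold change was positive for 8 of the 8, with a median of 2.08, beside -0.03 over all tested genes, of which 48.7% were positive. Because the genes were chosen with earlier results of these data known, these values and the counts below describe them and are not a test. Actn3 and Des, each at 0 in 1 Eff- library, had enough counts to be tested only through their Eff+ libraries. With the untested Tnnc2 and Mb placed at their pooled fold values over a floor, given below, the median over the 10 was 2.18. For 4 of the 8 (Mylpf, Tnnt3, Actn3 and Des) every Eff+ library was above every Eff- library, beside 18.7% of all tested genes. Scaling by library totals alone, which shifted the median of all tested genes to -0.42, moved the share of higher calls among called genes from 66.1 to 21.2%. Under it the 8 genes kept positive values and Mylpf stayed called at a log2 fold change of 1.49. Without Eff+ library 2, edgeR called 0 genes in all, with 3260 at an unadjusted p under 0.05. In bulk RNA, fewer cells holding an RNA and less of that RNA per cell cannot be told apart. Whether these libraries held muscle cells was not tested.

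**Figure D1:**
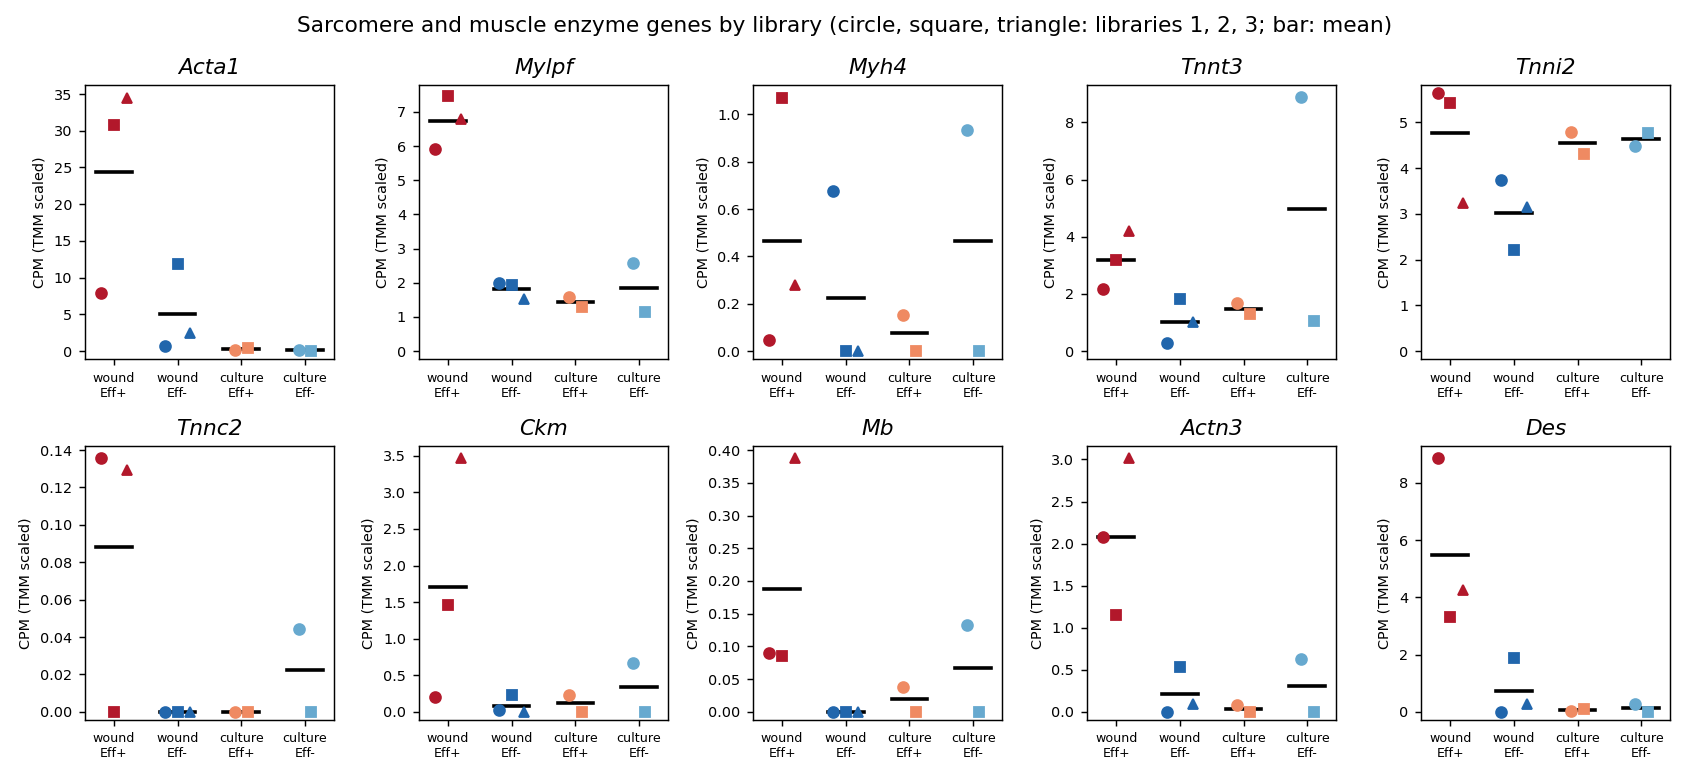
Level of each of the 10 genes in each library, in TMM-scaled CPM, by group (wound and culture, Eff+ and Eff-). Circles, squares and triangles are libraries 1, 2 and 3 and bars are group means. Each panel has its own scale. Mylpf separated the wound groups with little spread, Acta1 spread from 0.675 to 34.5 CPM over the wound libraries, and Tnni2 lay between 2.21 and 5.65 CPM in all 10 libraries.

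The windows before the start of 3 of these genes are printed to show the sequence elements by which muscle genes are usually recognised. E-boxes (CANNTG, a palindromic pattern that reads the same on either strand) are bound by myogenic factors such as MyoD, and CArG boxes by serum response factor. Capitals mark both, no marked element overlapped another, and each window is the 250 bases before the RefSeq start, read 5′ to 3′ on the gene's strand (GRCm38.p6).
Acta1 (chr8:123894776-123895025, minus strand): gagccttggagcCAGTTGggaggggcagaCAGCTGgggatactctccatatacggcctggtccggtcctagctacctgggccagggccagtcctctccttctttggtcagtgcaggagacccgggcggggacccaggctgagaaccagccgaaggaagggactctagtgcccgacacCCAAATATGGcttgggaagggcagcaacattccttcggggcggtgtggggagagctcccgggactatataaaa
Mylpf (chr7:127211358-127211607, plus strand): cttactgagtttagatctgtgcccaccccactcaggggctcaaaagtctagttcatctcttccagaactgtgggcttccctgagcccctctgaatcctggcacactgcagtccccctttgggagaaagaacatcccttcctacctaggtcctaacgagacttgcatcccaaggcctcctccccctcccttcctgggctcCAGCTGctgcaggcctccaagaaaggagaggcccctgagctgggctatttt
Des (chr1:75360042-75360291, plus strand): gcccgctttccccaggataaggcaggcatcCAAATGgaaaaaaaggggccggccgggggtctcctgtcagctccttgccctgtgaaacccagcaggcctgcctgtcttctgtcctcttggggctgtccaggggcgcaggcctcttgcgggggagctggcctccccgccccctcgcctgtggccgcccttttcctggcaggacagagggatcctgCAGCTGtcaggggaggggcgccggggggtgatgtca
Acta1 held 2 E-boxes and 1 CArG box, Mylpf 1 E-box and Des 2 E-boxes. Entries for 7 of the 10 genes matched by symbol. All 7 had an E-box in at least 1 window, and 2 (Acta1 and Myh4) had a CArG box. Of all 32851 windows of this length, 66.2% held an E-box and 1.47% a CArG box. A match is a run of letters and not evidence that a factor bound there.

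Mylpf (ENSMUSG00000030672, GRCm39 chromosome 7, 126808062 to 126813470, plus strand) encodes the phosphorylatable fast regulatory light chain that sits on the neck of the myosin head. Its counts were 262, 349 and 316 in wound Eff+ and 100, 101 and 67 in wound Eff-, or 6.73 ± 0.780 and 1.81 ± 0.243 CPM (SD, n = 3). The 3 Eff+ libraries were all above the 3 Eff- libraries, and the highest library exceeded the lowest 1.26-fold within Eff+ and 1.29-fold within Eff-. Mylpf rose in Eff+ by a log2 fold change of 1.89 (SE 0.31, adjusted p = 0.013, edgeR). The call was lost without Eff+ library 2 (adjusted p = 0.078, edgeR) and without Eff- library 2 (0.062). With both libraries numbered 2 left out, the log2 fold change was 1.85 and the adjusted p was 0.24 in edgeR. That fit called 0 of 15223 genes, so the lost call was not particular to Mylpf. Mylpf lies 421 bases from Tbc1d10b, a gene on the opposite strand at 20.7 CPM in wound Eff+ and 13.4 CPM in Eff-, and the recorded counting command has no strand option. Whether reads of that neighbour entered the Mylpf count was not tested.

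Myh4 (ENSMUSG00000057003, chromosome 11, 67128855 to 67151272, plus strand) encodes the heavy chain of the fastest fibres, the motor to which that light chain binds in glycolytic muscle. It had 2, 50 and 13 counts in wound Eff+ and 34, 0 and 0 in wound Eff-. The groups overlapped, and 1 library in each held most of the counts. The log2 fold change was 1.04 (SE 1.83, adjusted p = 0.75, edgeR), and it was -0.46 without Eff+ library 2.

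Acta1 (ENSMUSG00000031972, chromosome 8, 124618508 to 124621490, minus strand) encodes skeletal alpha-actin, the body of the muscle thin filament. It was the most abundant of the 10 per kilobase in wound Eff+ and supplied 50.0% of their counts there and 42.3% in wound Eff-. Its counts were 352, 1437 and 1604 in wound Eff+ and 34, 626 and 110 in wound Eff-. In CPM this was 7.95, 30.8 and 34.5 against 0.675, 11.9 and 2.52. The groups overlapped, since Eff- library 2 was above Eff+ library 1. Within Eff- the highest library exceeded the lowest 17.6-fold. The log2 fold change was 2.27 (SE 0.95, adjusted p = 0.16, edgeR), which did not pass. It was 3.92 without Eff- library 2, still not called. With the replicate number as a block, Acta1 had a log2 fold change of 2.86 and an adjusted p of 0.011 in edgeR. Whether the numbers pair these samples was left undecided by the check given in the closing section.

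The troponin complex switches the thin filament on when calcium arrives: Tnnc2 binds calcium, Tnni2 inhibits the actin and myosin contact, and Tnnt3 ties the complex to tropomyosin. The 3 subunits assemble together in fast fibres, and their counts here differed from each other in level and pattern. Tnnt3 (ENSMUSG00000061723, chromosome 7, 142052573 to 142069746, plus strand) had 96, 149 and 196 counts in wound Eff+ and 14, 95 and 44 in wound Eff-. The 3 Eff+ libraries, from 2.17 to 4.22 CPM, were above the 3 Eff- libraries, from 0.278 to 1.81 CPM. The difference in log2 was 1.63 (SE 0.68, adjusted p = 0.16, edgeR) and was not called.

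Tnni2 (ENSMUSG00000031097, chromosome 7, 141995545 to 141998147, plus strand) had 250, 253 and 150 counts in wound Eff+ and 188, 116 and 137 in wound Eff-. The groups overlapped, with Eff+ library 3 below Eff- library 1 in CPM (3.23 against 3.73). The log2 fold change of 0.65 (SE 0.37, adjusted p = 0.29, edgeR) was the smallest of the 8 tested. Tnnc2 (ENSMUSG00000017300, chromosome 2, 164619081 to 164621887, minus strand) had 6, 0 and 6 counts in wound Eff+ and 0 in all 3 Eff- libraries. It was too scarce to be tested. Against a floor of 3 counts over the Eff- group (0.0205 CPM, counting error only), its pooled Eff+ level was 4.27-fold higher. That value leaves out the spread among libraries, and Eff+ library 2 was at 0 like the Eff- libraries. Without the filter on low counts, the log2 fold change of Tnnc2 was 5.09 (SE 2.73, adjusted p = 0.33, edgeR). Its annotation overlaps that of Ube2c, a cell division gene on the opposite strand at 3.41 CPM in wound Eff+ and 3.60 CPM in Eff-.

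Tnni2 and Tnnt3 flank Lsp1, a leukocyte actin-binding protein gene on the same strand. Lsp1 lies between them, 16398 bases from Tnni2 and 3968 bases from Tnnt3, and stood at 949 CPM in wound Eff+, 628 CPM in wound Eff- and 579 CPM over the culture libraries. No other of the 10 genes had a neighbour of this level as its nearest gene of at least 10 CPM. Acta1 and Myh4 lay 336639 and 185434 bases from theirs, Galnt2 and Adprm. The annotation of Tnnt3 also overlaps that of Prr33, on the opposite strand at 0.979 CPM in wound Eff+ and 0.653 CPM in Eff-. Whether reads from Lsp1 or Prr33 entered the troponin counts was not tested.

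Actn3 (ENSMUSG00000006457, chromosome 19, 4911244 to 4927937, minus strand) encodes the fast-fibre alpha-actinin that cross-links thin filaments at the Z-disc. Its wound counts were 92, 54 and 140 in Eff+ and 0, 28 and 4 in Eff-. The 3 Eff+ libraries (1.16 to 3.01 CPM) were above the 3 Eff- libraries (0 to 0.532 CPM). On the log2 scale the difference was 3.30 (SE 1.25, adjusted p = 0.12, edgeR), not called, and it was 5.45 without Eff- library 2. The start of the gene lies 758 bases from Zdhhc24, on the opposite strand at 10.4 CPM in wound Eff+ and 12.4 CPM in Eff-.

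Des (ENSMUSG00000026208, chromosome 1, 75336973 to 75345223, plus strand) encodes desmin, which links Z-discs to one another and to the membrane and is also made by smooth muscle, heart and pericytes. It had 392, 154 and 198 counts in wound Eff+ and 0, 98 and 12 in wound Eff-. All 3 Eff+ libraries were above all 3 Eff- libraries, at 5.47 ± 2.97 against 0.713 ± 1.01 CPM (SD, n = 3). The fold change was 2.93 on the log2 scale (SE 1.25, adjusted p = 0.16, edgeR), not called, and it was 5.30 without Eff- library 2. Without Des, the summed level of the other 9 genes was 24.2, 50.6 and 56.0 CPM in Eff+ and 7.37, 18.6 and 8.30 CPM in Eff-, and the groups did not overlap there either.

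Ckm (ENSMUSG00000030399, chromosome 7, 19138701 to 19156766, plus strand) encodes the creatine kinase that buffers ATP at the sarcomere. It had 9, 68 and 161 counts in wound Eff+ and 1, 12 and 0 in wound Eff-. The groups overlapped by a narrow margin, 0.203 CPM in Eff+ library 1 against 0.228 CPM in Eff- library 2. The log2 fold change, 4.30 (SE 1.50, adjusted p = 0.10, edgeR), was the largest of the 8 tested and was not called. It was 7.01 without Eff- library 2 and 3.27 without Eff+ library 3, and without Eff- library 1 that of Myh4 was larger (7.44 against 3.83). Mb (ENSMUSG00000018893, chromosome 15, 76899687 to 76934870, minus strand) encodes the oxygen store of oxidative muscle. It had 4, 4 and 18 counts in wound Eff+ and 0 in every Eff- library. It was not tested, and its pooled Eff+ level was 9.24-fold above the same floor, again without the spread among libraries. Without the filter on low counts, the log2 fold change of Mb was 6.17 (SE 2.44, adjusted p = 0.16, edgeR). The counts of Mb and Tnnc2 were even in every wound library. If both mates of a read pair were counted, which was not tested, the floor covers fewer fragments. The fold values of both genes over the floor would then be lower.

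DESeq2 on the same counts called 4 of the 8 tested genes: Mylpf (adjusted p = 2.4e-07, DESeq2), Ckm (0.010), Actn3 (0.022) and Des (0.041). It also called more genes in all, 3135 of the 14908 tested, against 1666 of 14908 with edgeR.

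**Figure D2:**
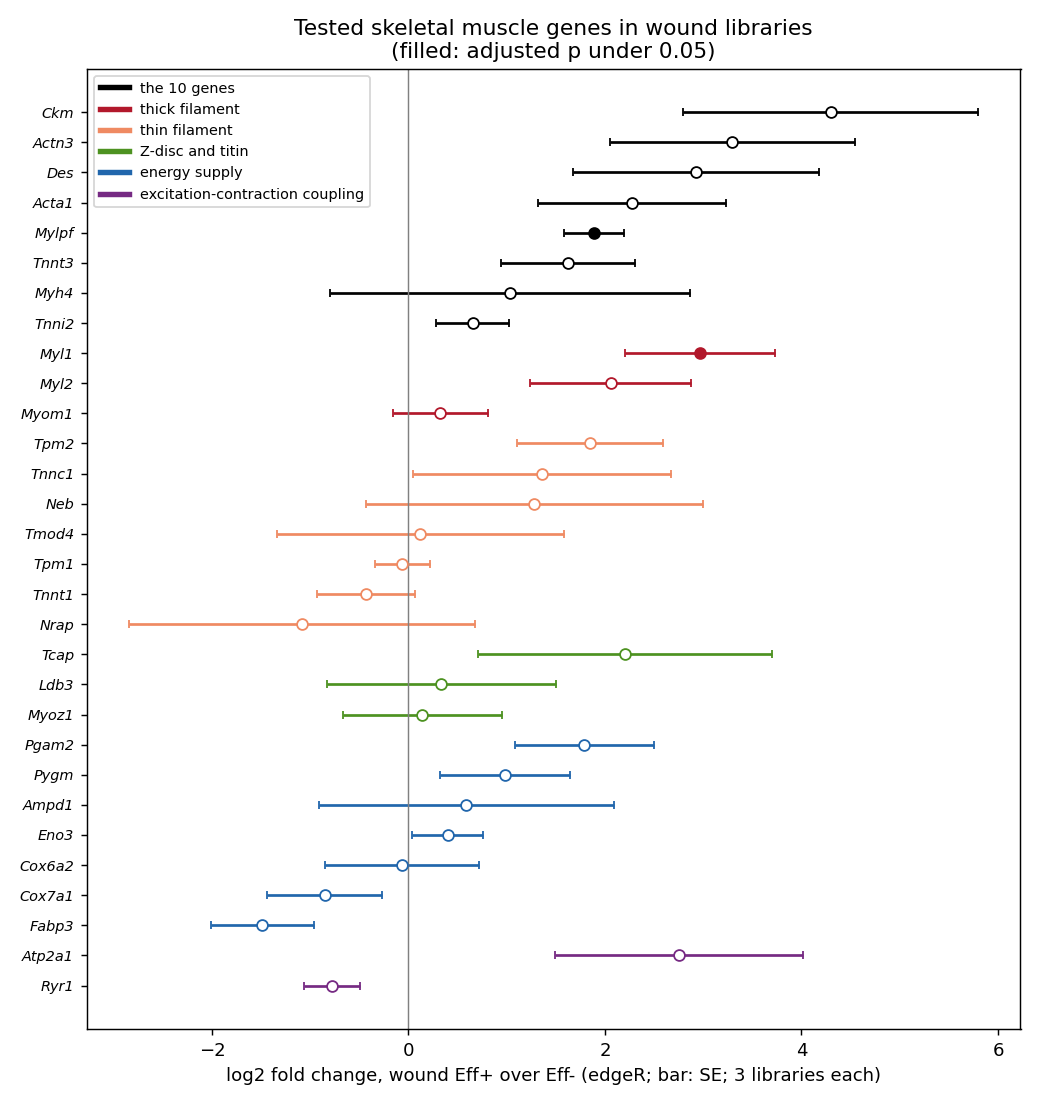
Log2 fold change of wound Eff+ over Eff- with its SE for each tested member and each tested gene of the wider skeletal muscle lists, from edgeR on 3 libraries per group. Filled symbols have an adjusted p under 0.05, which holds for Mylpf and Myl1. All 8 tested members lie to the right of 0, while the wider list has 15 of 22 there.

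Set per kilobase, the order of the 10 genes in wound Eff+ was Acta1 at 15.9 ± 9.36 RPKM, Mylpf at 6.34 ± 0.734, Tnni2 at 3.18 ± 0.892, Tnnt3 at 2.02 ± 0.647 and Des at 1.46 ± 0.791 RPKM (SD, n = 3). Actn3 (0.718), Ckm (0.586), Mb (0.126), Tnnc2 (0.110) and Myh4 (0.0773 RPKM) followed. In each neighbouring pair of this order the ranges of 1 SD around the means touched or overlapped, except between Mylpf and Tnni2. In wound Eff- the leading genes were Acta1 at 3.28 ± 3.92, Tnni2 at 2.02 ± 0.514 and Mylpf at 1.71 ± 0.229 RPKM, whose ranges overlapped. In culture Eff+, Tnni2 led at 3.04 ± 0.228 RPKM, then Mylpf at 1.35 ± 0.191 and Tnnt3 at 0.940 ± 0.180 RPKM (SD, n = 2), while Acta1 stood at 0.174 ± 0.175 RPKM. In culture Eff- the means were 3.09 ± 0.137 RPKM for Tnni2 and 1.75 ± 0.955 RPKM for Mylpf. Tnnt3 there, at 3.13 ± 3.50 RPKM, was carried by library 1.

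**Figure D3:**
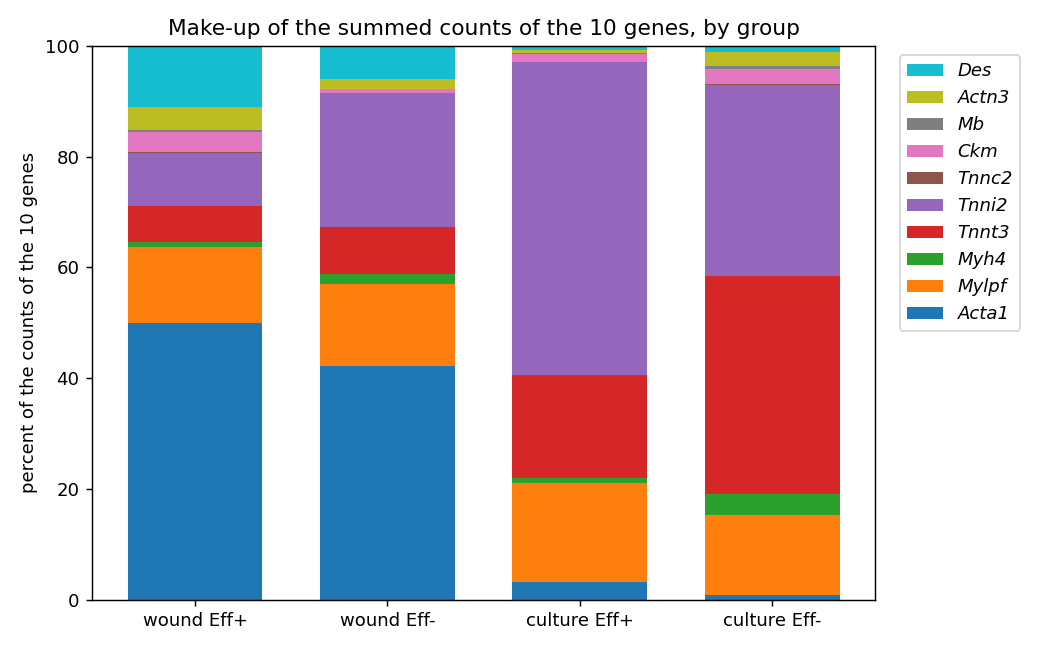
Share of each gene in the summed counts of the 10 genes, in percent, by group. Acta1 took 50.0% in wound Eff+ and 42.3% in wound Eff- but 3.21 and 0.896% in culture Eff+ and Eff-, where Tnni2 took 56.5 and 34.6%.

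In culture, Tnni2, Mylpf and Tnnt3 had at least 20 counts in every library, and the other 7 genes had at most 21. Tnni2 had 125 and 104 counts in Eff+ and 101 and 92 in Eff-, with overlapping groups and a log2 fold change of -0.03 (SE 0.57, edgeR). Mylpf had 41 and 31 against 58 and 22 counts (-0.39, SE 0.90). Tnnt3 had 44 and 31 against 200 and 20 counts (-1.75, SE 1.15), and its highest value came from Eff- library 1. The groups overlapped for all 3 genes, and each had an adjusted p of 1.0 in edgeR.

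The other 7 genes were too scarce in culture to be tested. Acta1 had 2 and 11 counts in Eff+ and 4 and 1 in Eff-. Des had 1 and 2 against 6 and 0 counts. In the libraries numbered 2, Myh4, Tnnc2, Ckm, Mb and Actn3 all had 0 counts, which allows up to 3 counts each (0.125 CPM in Eff+ and 0.156 CPM in Eff-). In Eff- library 1 these 5 genes had 21, 1, 15, 3 and 14 counts, and in Eff+ library 1 they had 4, 0, 6, 1 and 2. Titin, a very long gene of the wider list, had 129 and 20 counts in culture Eff+ and 372 and 1 in culture Eff-, against 0 to 10 in the wound libraries. All 53 genes of the wider skeletal list had counts in Eff- library 1, against 22 of 53 in Eff- library 2.

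Of the 3 tested genes, 0 were called in culture, as were 0 of 14867 genes in all (0%), while 115 genes had an unadjusted p under 0.05 and DESeq2 called 2. On simulated counts of 2 libraries per group the procedure recovered 0% of 4-fold changes, so differences of this size were not detectable there. The difference between the wound and culture contrasts was tested for 8 of the 10 genes, and 0 passed, beside 0 of 20270 genes (0%, with 2222 at an unadjusted p under 0.05 in edgeR and 785 called by DESeq2). The value for Mylpf was 2.29 (SE 0.73, adjusted p = 0.30, edgeR) and for Tnnt3 3.38 (SE 1.33, adjusted p = 0.40). That Mylpf was called in the wound libraries and not in culture therefore does not show that the models differ.

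The wider skeletal muscle program was read from 53 further genes in 5 lists. With the filter, 22 were tested in the wound libraries, 1 rose and 0 fell, a share called higher of 4.55% beside 7.39% of all tested genes, and the median log2 fold change was 0.37. Counts in Eff+ with 0 in every Eff- library were seen for 18 of the 52 with wound counts (34.6%), and the reverse for 0. Over all genes with wound counts these shares were 13.3% and 8.78%, not matched for level. None of the 18 was tested. All but Synpo2l (28, 26 and 4 Eff+ counts) were also at 0 in at least 1 Eff+ library. Of the 22 tested, 4 (18.2%) had every Eff+ library above every Eff- library, beside 18.7% of all tested genes. The gene called was Myl1, the essential fast myosin light chain that sits beside Mylpf on the myosin neck. It had 139, 166 and 192 counts in wound Eff+ and 4, 44 and 20 in wound Eff-, and rose by a log2 fold change of 2.97 (SE 0.76, adjusted p = 0.046, edgeR). All 3 Eff+ libraries were above all 3 Eff- libraries. Leaving out any 1 of the 6 libraries ended that call, with adjusted p values from 0.056 (without Eff- library 1) to 0.14 (without Eff+ library 2) in edgeR. Without both libraries numbered 2, a fit that called 0 genes in all, it was 0.25.

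Of 12 thick filament genes 3 were tested, with 1 called (Myl1) and a median log2 fold change of 2.06. Of 10 thin filament genes 7 were tested and 0 called, with a median of 0.12. Tpm1, a tropomyosin that non-muscle cells also make, had a log2 fold change of -0.06 (SE 0.28, adjusted p = 0.91, edgeR). Of 11 Z-disc and titin genes 3 were tested and 0 called (median 0.33), and Myoz1, a calcineurin-binding Z-disc protein, had 0.14 (SE 0.80, adjusted p = 0.93, edgeR). Of 9 energy supply genes 7 were tested and 0 called (median 0.40). Eno3, the muscle enolase, had 0.40 (SE 0.36, adjusted p = 0.50, edgeR).

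Of 11 genes of excitation-contraction coupling, which release and take up calcium, 2 were tested and 0 called (median 0.99), and these 2 went in opposite directions. The calcium release channel gene Ryr1 had 2.87, 3.08 and 2.91 CPM in wound Eff+ and 4.88, 5.02 and 5.27 CPM in Eff-, the opposite order to Mylpf and with no overlap. Its log2 fold change was -0.78 (SE 0.29, adjusted p = 0.12, edgeR). With library totals only it was called lower, at -1.17 (adjusted p = 0.029, edgeR). The calcium pump gene Atp2a1 had 37, 53 and 13 counts in wound Eff+ and 0, 10 and 6 in Eff-. It had the same order as Mylpf, also with no overlap in CPM. Its log2 fold change was 2.75 (SE 1.26, adjusted p = 0.19, edgeR). Of 8 satellite cell and myogenic factor genes 1, Myog, was tested, and 6 had counts in Eff+ with 0 in all Eff- libraries. That was 75% of the 8, beside 13.3% of all genes with wound counts. Each of these 6 was also at 0 in at least 1 Eff+ library, so their groups overlapped. Myog, a transcription factor of differentiating muscle cells, had 378, 14 and 6 counts in wound Eff+ and 30, 0 and 0 in Eff- (3.88, SE 2.01, adjusted p = 0.24, edgeR). Its counts lay mostly in Eff+ library 1, where Acta1 was lowest of the Eff+ libraries. The value for Myog was 0.11 without Eff+ library 1 and 10.1 without Eff- library 1, neither called. With the replicate number as a block it was 4.42 (adjusted p = 0.017, edgeR).

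The related heart and smooth muscle genes were compared in the same libraries. Of 6 heart genes 1 was tested, with a log2 fold change of -0.77, and 0 were called. The cardiac actin gene Actc1, which was not tested, had 90, 0 and 23 counts in wound Eff+ and 2, 0 and 0 in Eff-. Of 9 smooth muscle genes 5 were tested and 1, Acta2, was called. Acta2, the actin of smooth muscle and myofibroblasts, had 3292, 2130 and 3028 counts in wound Eff+ and 801, 509 and 553 in Eff-, or 61.7 ± 14.7 and 12.8 ± 3.11 CPM (SD, n = 3). It rose by a log2 fold change of 2.27 (SE 0.26, adjusted p = 0.0097, edgeR), and its groups did not overlap. The adjusted p was 0.058 without Eff+ library 2 and 0.20 without both libraries numbered 2 in edgeR. Each of those fits called 0 genes in all.

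Markers of several other cell types also differed in level between the wound groups, in both directions. Summed neutrophil markers stood at 21764, 23587 and 18820 CPM in wound Eff+ and 4066, 2420 and 4545 CPM in Eff-, with 8 of 10 called higher. Summed fibroblast markers were 705, 1419 and 2454 CPM in Eff+ and 202, 1163 and 623 CPM in Eff-, with a positive log2 fold change for 10 of 10 and 1 called. Eff- library 2 was the highest Eff- library in fibroblast markers, as it was in Acta1, Tnnt3, Actn3, Des and Ckm, and also in erythroid and pericyte markers. Smooth muscle genes summed to 84.4, 54.0 and 77.7 CPM in Eff+ and 17.1, 17.0 and 15.4 CPM in Eff-. Keratinocyte markers summed to 60.6, 20.9 and 8.57 CPM in Eff+ and 1.17, 0.418 and 1.28 CPM in Eff-, and the defining keratins Krt5 and Krt14 were at 0 in all 3 Eff- libraries. Endothelial markers had the opposite order, with sums of 34.8, 39.2 and 34.4 CPM in Eff+ and 49.8, 54.2 and 46.5 CPM in Eff-, and 0 of 5 were called. Adipocyte markers summed to 7.55, 8.42 and 18.4 CPM in Eff+ and 37.5, 35.7 and 8.62 CPM in Eff-, with overlapping groups. Summed macrophage markers, Lyz2 among them, stood at 5163, 8299 and 4470 CPM in Eff+ and 5802, 12271 and 5291 CPM in Eff-. In Eff+ these sums were below the neutrophil sums in every library, though sums of different marker lists do not give shares of cells. Lyz2 was high only in both wound libraries numbered 2, so the macrophage sums do not compare like with like. Of the 10 macrophage markers, 3 were called lower and 1 higher in Eff+. The part of these cell types in the differences of the 10 genes was not tested.

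**Figure D4:**
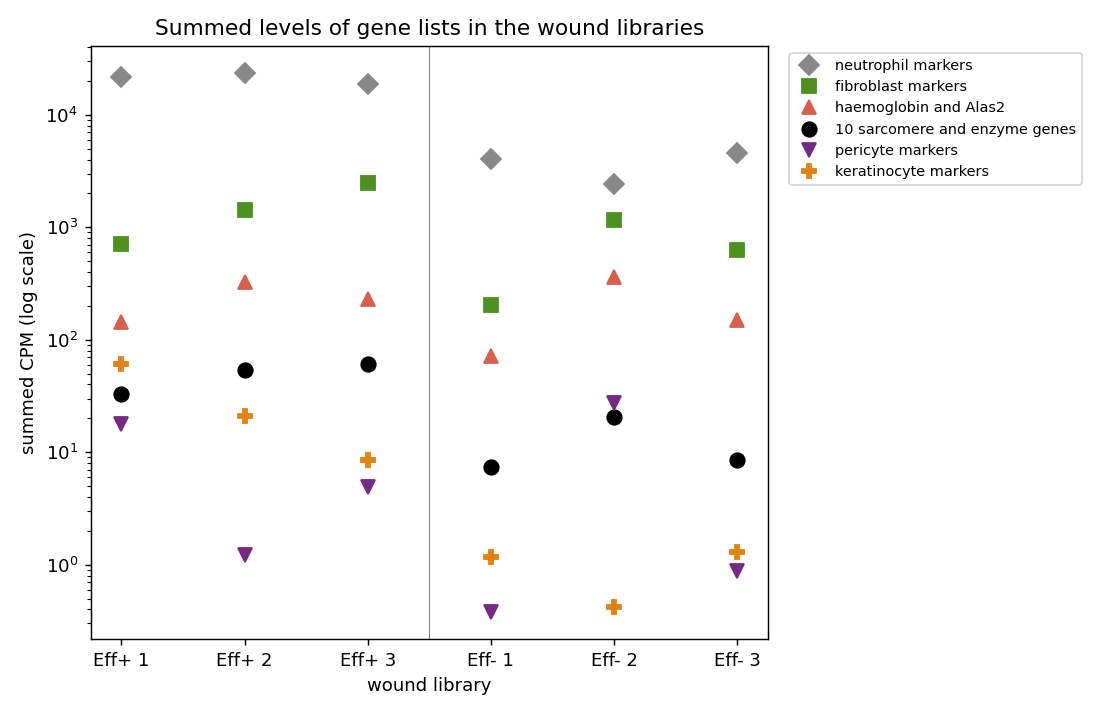
Summed CPM (log scale) of the 10 genes and of marker lists in each wound library. The neutrophil sum separates the Eff+ from the Eff- libraries, while the fibroblast and erythroid sums are highest within Eff- in library 2, at 1163 and 361 CPM.

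Across the 6 wound libraries, which share the gate difference and their depth, the genes followed different marker sums. As a description on log2(CPM + 0.5), Pearson's r of Acta1 was 0.96 with the fibroblast sum and 0.61 with the neutrophil sum, and that of Tnnt3 was 0.96 and 0.69. For Mylpf it was 0.61 with the fibroblast sum, 0.95 with the neutrophil sum and 0.96 with the smooth muscle sum. Tnni2 had r = -0.09 with the fibroblast sum, 0.79 with the neutrophil sum, 0.64 with the smooth muscle sum and 0.88 with the keratinocyte sum. Other sums were also followed closely, with r = 0.88 for Mylpf with the keratinocyte sum and 0.85 for Acta1 with the erythroid sum. Among the 10 genes themselves, r was 0.98 between Acta1 and Tnnt3, 0.93 between Actn3 and Des, 0.88 between Mylpf and Actn3, and 0.12 between Acta1 and Tnni2.

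The genes whose log2 CPM followed that of the sum of the 10 genes most closely over the 6 wound libraries were Srsf11 (r = 1.00), Fam160b2, Slc7a5, Lvrn, Camkk1 and Gm46189 (0.99 each), and Car4 and Abcb9 (0.98 each), named by a rule of the 8 highest r. Of 11620 genes considered, 233 (2.01%) had an r over 0.9. Of the 8, only Camkk1 was called in the comparison (log2 fold change 2.31, adjusted p = 0.031, edgeR). Its adjusted p was 0.051 to 0.12 without Eff+ library 1, 2 or 3 or Eff- library 1 or 3, and 0.20 without both libraries numbered 2.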

How the data were processed

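Samples were grouped by their titles. The authors deposited unnormalized counts of reads per gene. The authors' wound counts came from featureCounts 1.6.0 run against Ensembl release 106 (GRCm39), with no strand or paired-end option, per the file headers. Not given in the sources used here are the aligner and, for the culture table, the counting command. Trimmomatic 0.39 is named in the submitters' processing notes. There were 4 further culture columns that fit none of the labelled samples, and they were left unused. GENCODE vM21 names were found for 52081 of 55414 identifiers (99.9% of counts). Sequences are RefSeq's (GRCm38.p6), and coordinates of genes are those of the wound annotation.

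Computed here, with R 4.3.3 and edgeR 4.0.16: TMM scaling, filterByExpr, and quasi-likelihood tests comparing Eff+ with Eff- in each model alone and of their difference over all 10 libraries, with no covariate and Benjamini-Hochberg adjustment over all tested genes at 0.05. An SE is the log2 fold change over the square root of F. CPM use TMM-scaled totals and RPKM divide by exon length. A count of 0 was read against a floor of 3 counts, which covers counting error only. Among wound values from 1 to 20, 71.6 to 76.4% were even, against 39.5 to 45.0% in culture. Whether mates of a pair were counted separately was not tested.

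The members and lists were chosen with earlier results of these data known. Named genes were the 10 members, up to 3 called genes of each muscle-related list in each direction by size of change (for a skeletal list with none, the tested gene of highest level), and the 8 genes of highest r with the members' sum. Actc1, Atp2a1, Synpo2l, Krt5, Krt14, Ttn, Lyz2 and the neighbouring genes were named with their values seen. Alternatives were RLE, upper quartile and totals-only scaling, DESeq2 1.42.0, limma 3.58.1 (voom), 2 other filters, a replicate block and each library left out. Leaving out both wound libraries numbered 2, the neighbour rule, and the settings for counts of members and for named genes other than members were chosen after seeing the data. On simulated counts, 8.33% of 2-fold and 57.8% of 4-fold changes were called in the wound design (14201 genes, 3 unchanged genes called), and 0% of either in the culture design (13767 genes, 0 unchanged called). No replicate pair agreed within sampling noise (chi-square per degree of freedom 87.8 to 608).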

Additional observations from a re-analysis of the deposited data

How the results depend on the processing

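Every tested member except Myh4 kept a positive log2 fold change in the wound comparison under every alternative that could fit it. Myh4 was -0.46 to 7.44 over the fits that leave out 1 library and -1.05 with both libraries numbered 2 left out. The count of wound genes called, 1666, was 3368 with library totals only, 3135 with DESeq2, 2985 with the replicate block, 0 with both libraries numbered 2 left out (2212 at an unadjusted p under 0.05 in edgeR), and 0 to 1347 with each library left out. The count of the 10 members called, 1, was 4 with DESeq2, 2 with the replicate block, 0 with both libraries numbered 2 left out, and 0 to 1 with each library left out. The wider list's 1 was 3 with library totals only (Ryr1, lower, among them), 3 with DESeq2, 2 with the replicate block, 0 with both libraries numbered 2 left out, and 0 to 0 with each library left out.

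Culture calls, 0, were 2 with DESeq2, 2 with no filter, 48 with the replicate block, and 0 to 27 with each library left out. Calls of the difference between models, 0, were 785 with DESeq2, 517 with no filter, 441 with the replicate block, and 0 to 2009 with each library left out, the highest without culture Eff- library 2. A lone culture library was assumed to vary like the other group. In culture, Tnni2 was 0.21 with no filter and -0.070 to 0.30 with each library left out, Mylpf -0.57 to 0.36, and Tnnt3 -2.30 to 0.55. Of the other named wound genes, Myoz1 was -0.23 with library totals only, -0.12 with limma-voom, -0.15 with the replicate block and -0.70 to 0.63 with each library left out. Eno3 was -0.018 with library totals only. Tpm1 was -0.42 to 0.12 with each library left out and 0.28 with both libraries numbered 2 left out. The causes were not tested.

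Same-numbered wound libraries had correlations of their deviations of 0.41, 0.02 and 0.23, against at most -0.14, 0.15 and 0.15 with other numbers. Not every pair passed 0.1, so the numbers were not used to pair the samples in the main fits. Whether they do pair the samples remained undecided. Culture has 2 numbers, with 0.74, too few to decide. Ckm could not be fitted with both libraries numbered 2 left out, nor Ckm, Actn3, Myh4 and Myog under the 1 CPM filter. At these depths a member at 0 may still have had up to 3 counts.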

Other observations

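The non-muscle relatives of the sarcomere proteins were measured at far higher counts in the same wound libraries. All 12 genes of that list were tested, 4 were called higher in Eff+ and 1 lower, and the median log2 fold change was 0.28. Actn1, a non-muscle alpha-actinin of focal adhesions, had 2247, 2827 and 2410 counts in Eff+ and 844, 1148 and 1006 in Eff-. It rose by 1.40 on the log2 scale (SE 0.18, adjusted p = 0.0097, edgeR). Myl12b, a non-muscle regulatory light chain related to Mylpf, had 1575, 1605 and 1517 counts in Eff+ and 909, 899 and 720 in Eff-, and rose by 0.99 (SE 0.16, adjusted p = 0.013, edgeR).

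Actg1, a cytoplasmic actin, had 35674, 40923 and 27610 counts in Eff+ and 25271, 17131 and 18151 in Eff-, and rose by 0.87 (SE 0.23, adjusted p = 0.0499, edgeR). Ckb, the brain-type creatine kinase related to Ckm, fell by 1.22 on the log2 scale (SE 0.31, adjusted p = 0.046, edgeR), with 2006, 1142 and 1108 counts in Eff+ and 4670, 3876 and 2266 in Eff-. The groups of these 4 genes did not overlap. The calls of Actg1 and Ckb were lost under several alternatives. Actg1 was not called in any fit that leaves out 1 library, and Ckb was called in only 1 of those, without Eff+ library 1 (adjusted p = 0.024, edgeR). Without Eff+ library 2 the adjusted p was 0.062 for Actn1 and 0.071 for Myl12b in edgeR, and without Eff- library 2 it was 0.066 for Myl12b. Without both libraries numbered 2, a fit that called 0 genes in all, the adjusted p ranged from 0.21 for Actn1 to 0.39 for Actg1.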
